A study of Canis lupus familiaris with 20 samples.

Results

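Plakoglobin, the protein of the gene JUP, was followed in muscle RNA of 10 dogs aged 2 years. Probes that the array files name JUP were taken as the gene, which gave 3 of 42034 probes, and JUP is 1 of 6167 genes with a symbol that could be tested. JUP was selected on its measured ratios in these same dogs, so its own group levels are given as a description without a test. By the labels 4 dogs were normal, 4 affected and 2 escapers. The labels name neither the muscle nor the breed nor the dystrophin mutation. The disease of both the affected dogs and the escapers is Duchenne muscular dystrophy (DMD), in which dystrophin is missing, and an escaper is a dog with this disease that stays mildly ill. Each dog was hybridised on 2 arrays, once in Cy5 and once in Cy3, against 1 common reference, the RNA of a normal individual. The labels do not say that any dog was treated.

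Plakoglobin, also called gamma-catenin, is an armadillo repeat protein and a close relative of beta-catenin. In junctions it binds the tails of cadherins, and in desmosomes it ties the desmosomal cadherins to desmoplakin and so to intermediate filaments, which in muscle are made of desmin. In skeletal muscle fibres it is also known to bind the insulin receptor and the p85 subunit of PI3 kinase, and to sit with the dystrophin-glycoprotein complex at costameres.

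The JUP probes lie on chromosome 9 in the coordinates of the array files, whose genome build the sources used here do not name. The first, A_11_P00000781, spans chr9:24359621-24361357, an interval of 1737 bases that is longer than the 60-base probe, so that the probe matches the genome in separate pieces. The second, A_11_P0000025358, lies at chr9:24366406-24366465, and the bright probe, A_11_P0000039362, lies at chr9:24372575-24372634. Another probe, A_11_P0000035594 at chr9:24371677-24371736, is described in the files as similar to plakoglobin but carries no gene symbol, and it is not counted among the 3. The files give no exon, intron or UTR for any of them. The files give an Ensembl transcript as the target of the first and second probes and a RefSeq transcript as that of the bright probe. The sequences of the first and second are shown because they gave far weaker signals than the bright probe, although all 3 carry the same gene name. That of the bright probe is not shown, since its place relative to the UTR is not given.
first JUP probe A_11_P00000781: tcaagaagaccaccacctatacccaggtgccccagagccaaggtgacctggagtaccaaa
second JUP probe A_11_P0000025358: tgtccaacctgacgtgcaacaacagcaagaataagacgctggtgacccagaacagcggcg
Both hold 55% G and C, against 45% in the bright probe.

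The arrays and dogs differed in ways that bear on every value below. The share of probes detected well above background for the dog's RNA ran from 30.5% to 60.2%, with the highest share on the Cy5 array of affected 4 and 30.5% to 43.6% on the other arrays. Over 16008 tested probes, the arrays of opposite dye from 1 dog had r of 0.627 to 0.939. Affected 1 and escaper 2 stood apart: the mean log2 ratio of 14 measured skeletal muscle fibre genes was −1.64 and −1.61 in these dogs and from 0.11 to 0.68 in the other 8. Slides held 2 dogs of 1 group each, so slide and group cannot be told apart in any comparison, and both escapers lay on 1 slide. The labels do not say whether dogs of a group were related.

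The bright JUP probe gave a lower signal in all 4 normal dogs than in any of the 6 dystrophic dogs. Values are log2 ratios of dog over reference, averaged over the 2 arrays of a dog. The normal dogs had ratios of −1.55, −0.48, −1.12 and −1.61. The affected dogs had ratios of 0.64, 0.03, 0.39 and 0.11. The escapers had ratios of 0.31 and 0.33. The normal dogs did not overlap with the other groups, and normal 2 was the normal dog nearest to them. Both escapers lay inside the range of the affected dogs.

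**Figure D1:**
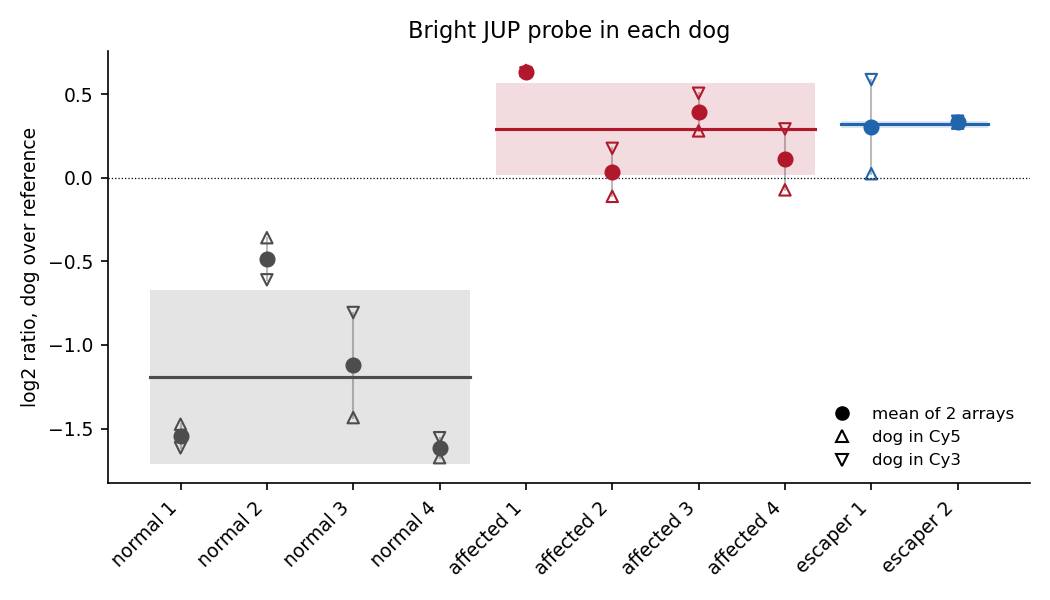
Log2 ratio of dog over reference at the bright JUP probe for each dog; filled points are means of 2 arrays, open triangles the single arrays by dye, lines group means and shaded bands ± 1 SD. All 4 normal dogs lie at −0.48 or lower and all 6 dystrophic dogs at 0.03 or higher.

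The group means were −1.19 ± 0.52 (SD, n = 4) in normal, 0.29 ± 0.28 (SD, n = 4) in affected and 0.32 ± 0.02 (SD, n = 2) in escaper dogs. Affected dogs exceeded normal dogs by 1.49 on the log2 scale (SE 0.25, 95% interval 0.92 to 2.05), a 2.80-fold higher ratio. Escapers exceeded normal dogs by 1.51 (SE 0.31, 95% interval 0.82 to 2.20), or 2.85-fold. These intervals come from the limma fit and describe a gene picked for this pattern. Escapers and affected dogs differed by 0.03 (SE 0.31, 95% interval −0.66 to 0.72), an interval that reaches beyond the SD of the normal dogs on both sides. The gap between the highest normal dog and the lowest affected dog was 0.52, and the gap to the lowest escaper was 0.79. The 2 arrays of a dog disagreed by at most 0.63, in normal 3, with a median disagreement of 0.24. On each single array, in either dye, the normal dogs stayed below every dystrophic dog.

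This separation has to be read against how common it is. Between affected and normal dogs, 13.4% of the 6167 genes had groups that did not overlap, in either direction, and 13.1% had an unadjusted p under 0.05. Between escaper and normal dogs, 30.7% of genes did not overlap and 19.2% had an unadjusted p under 0.05. Between escaper and affected dogs the shares were 7.96% and 5.64%. After Benjamini-Hochberg adjustment over 16008 probes, limma called 3 probes between affected and normal dogs (0.0187%), 1 higher and 2 lower in affected dogs. The only called probe with a symbol was ROGDI, and the 3 do not include JUP. No probe (0%) was called between escaper and normal dogs, where 2953 had an unadjusted p under 0.05, nor (0%) between escaper and affected dogs, where 835 did.

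The difference lay in the dog's channel and not in the reference. In log2 intensity, the dog channel of the bright probe averaged 10.90 ± 0.45 (SD, n = 4) in normal, 12.36 ± 0.27 (SD, n = 4) in affected and 12.25 ± 0.17 (SD, n = 2) in escaper dogs. The reference channel averaged 12.09 ± 0.14, 12.06 ± 0.08 and 11.93 ± 0.15 on the arrays of the same groups. The reference RNA is labelled as normal, and yet its signal at this probe lay near that of the dystrophic dogs. The highest dog channel among normal dogs, 11.56 in normal 2, was below the lowest reference channel, 11.83 on the arrays of escaper 1.

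**Figure D2:**
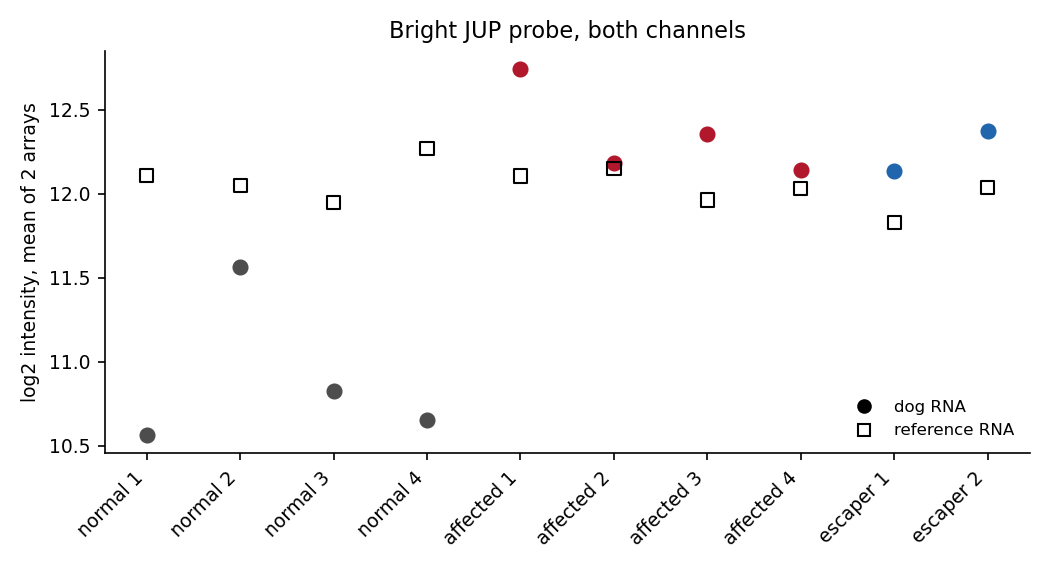
Log2 intensity of the bright JUP probe in the dog channel (filled points, coloured by group) and the reference channel (open squares), each the mean of 2 arrays. The reference stays between 11.83 and 12.27 throughout, while the dog channel runs from 10.56 to 11.56 in normal dogs and from 12.14 to 12.74 in dystrophic dogs.

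The other plakoglobin probes did not show this difference at a comparable size. The bright probe was detected well above background in both channels of all 20 arrays, was saturated on none, and had a median dog signal 42.3 times its local background. The first probe reached that level for the dog's RNA on 6 of 20 arrays, none of them of normal dogs, 5 of 8 of affected dogs and 1 of 4 of escapers. Its ratios were −0.02, −0.02, −0.22 and −0.34 in normal dogs. They were 0.07, 0.14, 0.07 and 0.16 in affected dogs, and −0.05 and −0.09 in escapers. The normal ratios lay below the affected ones, and the escapers lay inside the normal range, unlike at the bright probe. This probe entered the tests only through affected 1 and affected 4, the 2 dogs with both arrays well above background. The order of the dogs here is therefore no second reading of the JUP difference.

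At the first probe the affected mean of 0.11 exceeded the normal mean of −0.15 by 0.26 (SE 0.12, 95% interval −0.00318 to 0.52), an interval that lies below that of the bright probe. No array of a normal dog and 5 of 8 arrays of affected dogs were well above background, so this difference is not a measured fold change. Escapers differed from normal dogs by 0.08 (SE 0.14) at this probe.

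The second JUP probe reached it on 0 of 20 arrays, so it gave no usable level. Its dog ratios ran from −0.21 to 0.07 in normal, −0.21 to 0.29 in affected and −0.04 to 0.01 in escaper dogs. The plakoglobin probe without a symbol reached it on 3 of 20 arrays, and its group means were −0.08, −0.05 and −0.05. JUP's group difference therefore rests on 1 probe. Whether the probes read the same transcripts was not tested.

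**Figure D3:**
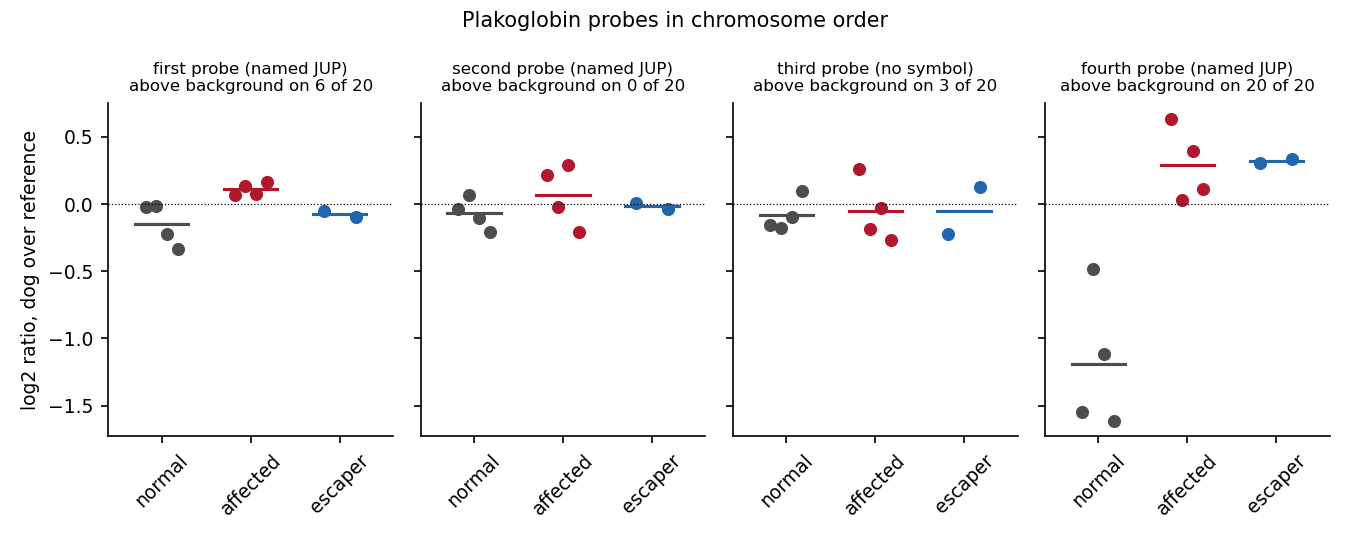
Log2 ratio of dog over reference at the 4 plakoglobin probes in chromosome order, with a point for each dog and a line for each group mean; titles give the number of arrays on which the dog's signal was well above background. The normal dogs' mean lies more than 1 log2 unit below both other means at the fourth probe alone, and the middle probes were rarely or never above background.

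Markers of other cell types also differed in level between the groups, and in bulk muscle fewer cells of a type and less RNA per cell cannot be told apart. The 13 measured macrophage and myeloid markers averaged −1.60 to −1.27 in normal, −1.14 to −0.08 in affected and −1.12 to 1.02 in escaper dogs. The 16 measured fibroblast and matrix markers averaged −1.06 to −0.69, −1.08 to 0.94 and −0.18 to 1.93. The 9 measured markers of satellite cells and regenerating fibres averaged −1.82 to −1.61, −1.66 to 0.17 and −0.25 to 0.45. No marker of these lists passed the adjusted threshold in any comparison. Their part in the JUP difference was not tested. In affected 1, whose JUP ratio of 0.64 was the highest, the macrophage markers averaged −1.14, above the normal range. Its regeneration markers averaged −1.66, within that range, and its fibroblast markers −1.08, below it. In every other dystrophic dog each of these averages lay above the normal range.

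Epithelial cells, which are rich in plakoglobin, were looked for through 27 markers, of which 18 had a probe. Of these, 17 were well above background on at most 3 arrays, with KRT10, KRT17, GRHL2, EHF and DSG3 on none. CDH1, the epithelial cadherin, was the only one tested, and it differed by 0.08 between affected and normal dogs (limma adjusted p = 0.83). Endothelial cells, where plakoglobin also serves in junctions, had 9 measured markers that averaged −0.14 to 0.10 in normal, −0.39 to −0.11 in affected and −0.17 to 0.79 in escaper dogs. Smooth muscle and pericyte markers averaged 0.12 to 0.23, −0.29 to 0.07 and 0.04 to 0.21. Adipocyte markers averaged −0.18 to 0.05, −0.08 to 0.24 and 0.14 to 0.24.

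The partners of plakoglobin in the desmosome were mostly below detection. Of 16 desmosomal genes, 13 had a probe with the symbol and 4 were tested, none of which passed the threshold in any comparison. The desmosomal cadherins DSG1, DSG3, DSC1 and DSC2 were above background on 0 of 20 arrays, the plakophilins PKP1 and PKP2 on 1 each, and PKP3 on 3. DSG2 and DSC3 had no probe with the symbol. The median difference of the 4 tested genes was 0.06 for affected minus normal, beside 0.04 over all 6167 genes, and 0.14 for escaper minus normal, beside 0.00484.

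PPL, or periplakin, which links junctions to intermediate filaments, was the desmosomal gene closest to JUP in its group pattern. Its ratios were −1.05, −1.02, −0.82 and −1.59 in normal dogs and −0.15, −0.38, 0.52 and 0.47 in affected dogs. The escapers had −0.65 and 1.93, so the groups with disease did not overlap with normal dogs but the escapers differed widely. Affected minus normal was 1.24 (SE 0.48, limma adjusted p = 0.36), and escaper minus normal was 1.76 (SE 0.59, adjusted p = 0.20). The other tested PPL probe, which was dimmer, gave 0.53 (SE 0.23) and 0.93 (SE 0.28). At the brighter probe, affected minus normal was 1.32 without affected 1 and escaper 2, a choice made after the data had been seen. Escaper minus normal was 0.47 without escaper 2 and 3.05 without escaper 1. It passed with 20 arrays and dog as a block (limma adjusted p = 0.04), a fit in which 911 probes passed over the whole array. Escaper minus affected was 0.53 (SE 0.59, adjusted p = 0.86), and −0.85 without affected 1 and escaper 2.

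DSP, or desmoplakin, the direct anchor of plakoglobin in desmosomes, had ratios of 1.41, 0.94, 1.60 and 1.66 in normal dogs, all above the reference. Affected dogs scattered from −0.25 to 2.72 and the escapers had 2.92 and 0.02. The lowest 2 values belonged to affected 1 and escaper 2. The affected minus normal difference was 0.09 (SE 0.72, limma adjusted p = 0.97), and its sign turned in 6 alternatives. PKP4, a plakophilin relative of adherens junctions, differed by −0.04 (SE 0.23) and PNN, or pinin, by 0.04 (SE 0.19), also with signs that turned.

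Among cadherins, catenins and adherens junction genes, 21 of 41 had a probe, 12 were tested and 0 passed in any comparison by limma. Beta-catenin (CTNNB1), the relative that plakoglobin can stand in for at junctions, had −0.26, −0.16, −0.11 and −0.30 in normal dogs. Affected dogs had 0.27, −0.29, −0.04 and 0.19, overlapping the normal range, and escapers had −0.19 and 0.92. Its difference was 0.24 (SE 0.23, limma adjusted p = 0.68) for affected minus normal and 0.57 (SE 0.28, adjusted p = 0.30) for escaper minus normal. The latter rested on escaper 2, since it was 0.02 without that dog and 1.12 without escaper 1, and −0.03 with median centring in place of loess.

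Alpha-catenin (CTNNA1), which joins both catenins to actin, had −1.09, −1.12, −0.91 and −1.21 in normal dogs. Affected dogs had 0.98, −0.82, −0.72 and −0.06, above every normal dog. The difference was 0.93 (SE 0.45, limma adjusted p = 0.44), with 1 escaper at −0.95 and the other at 0.85, and it was 0.55 without affected 1. CTNNA3, the alpha-catenin of striated muscle, differed by −0.31 (SE 0.16) in affected and −0.38 (SE 0.19) in escaper dogs against normal dogs. It was detected on 9 of 20 arrays, and with processed signals the differences were −1.69 and −2.28. CTNNAL1, an alpha-catenin-like protein, differed by −0.36 (SE 0.17), −0.74 (SE 0.21) and, escaper minus affected, −0.38 (SE 0.21). CDH15, the M-cadherin of satellite cells, differed by 0.08 (SE 0.26) and CDH11 by 0.07 (SE 0.32) between affected and normal dogs, both changing sign under some alternatives. CDH2, the neural cadherin of muscle, was above background on 1 of 20 arrays and CTNND1, or p120 catenin, on 3, so neither could be compared. CDH5, CDH13 and VCL had no probe with the symbol. NECTIN3 and CDH11 had the smallest p next to CTNNAL1 between escaper and affected dogs, with differences of 0.36 and 0.66. Limma adjusted p was 0.80 for both, and without escaper 2 the differences were 0.013 and −0.23. NECTIN3 was detected on 10 of 20 arrays and CDH11 on 5.

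Wnt signalling runs through beta-catenin, and plakoglobin can bind the same TCF factors. Of 89 genes of this pathway 55 had a probe, 35 were tested and 0 passed in any comparison. These counts leave out the Wnt carrier WLS, whose older symbol GPR177 was not matched to the list. GPR177 differed by 0.31 (SE 0.10, limma adjusted p = 0.31) in affected and 0.26 (SE 0.13, adjusted p = 0.30) in escaper dogs against normal dogs. Medians of the 35 were 0.06 for affected minus normal (0.04 over all genes) and 0.16 for escaper minus normal (0.00484 over all genes). RSPO3, a secreted enhancer of Wnt receptors, had −0.52 to −0.25 in normal dogs and 1.20, 1.31, −0.04 and 0.39 in affected dogs, a difference of 1.08 (SE 0.28, limma adjusted p = 0.24). With the scanner's processed signals it was 3.02. The escapers had −0.02 and −0.36, and escaper minus affected was −0.91 (SE 0.35, adjusted p = 0.80). RUVBL1, an ATPase that binds beta-catenin, differed by 0.63 (SE 0.18, adjusted p = 0.27) and, in escapers, 0.65 (SE 0.22, adjusted p = 0.21), with no overlap with normal dogs in either case.

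The receptor FZD7 differed by −0.43 (SE 0.13) between affected and normal dogs, and by −1.51 with processed signals. DVL1, which relays the receptor signal, and NLK, a kinase that acts on TCF factors, differed by −0.62 (SE 0.20) and −0.56 (SE 0.17) between escaper and normal dogs, with limma adjusted p of 0.20 and 0.19. DVL1 was −0.38 without escaper 2, −0.86 without escaper 1 and −1.92 with processed signals. The secreted inhibitors DKK2 and FRZB differed by 1.25 (SE 0.38) and 0.87 (SE 0.30) between escaper and affected dogs, with limma adjusted p of 0.80. FRZB was 0.34 without escaper 2. Among target genes, MYC differed by 0.99 (SE 0.81, limma adjusted p = 0.63) and CCND1 by −0.17 (SE 0.21, adjusted p = 0.75) between affected and normal dogs. The sign of CCND1 turned in 2 alternatives. MYC stood at 2.58 in escaper 2 and at −1.88 in escaper 1. AXIN2, LEF1 and TCF7L2 had no probe with the symbol.

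The insulin and IGF receptor pathway, where plakoglobin binds the receptor and PI3 kinase in fibres, had 36 of 48 genes with a probe and 27 tested, of which 0 passed. Medians were 0.06 in affected and −0.10 in escaper dogs against normal dogs. INSR, the insulin receptor, had 1.45 in affected 1 and −0.64 to 0.18 in the other 9 dogs. Its affected minus normal difference of 0.41 (SE 0.34, limma adjusted p = 0.64) was 0.02 without affected 1. IGF1R behaved alike, with 0.52 in affected 1 and −1.18 to −0.37 elsewhere, and its difference of 0.43 (SE 0.33) was 0.08 without that dog.

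PIK3R1, which encodes p85, differed by −0.62 (SE 0.26, limma adjusted p = 0.38) at its brighter probe and by 0.03 (SE 0.23) at its other tested probe between affected and normal dogs. IRS1, the adaptor between receptor and PI3 kinase, differed by −0.69 (SE 0.26, adjusted p = 0.34). INPP5K, a phosphatase that damps PI3 kinase signalling, differed by −0.61 (SE 0.21) and the growth factor IGF2 by 0.62 (SE 0.23). With processed signals IRS1 and INPP5K gave −1.26 and −1.34. FOXO1, the transcription factor that insulin signalling restrains, had −2.35 to −1.54 in normal dogs, 0.69, −0.97, −1.21 and −1.62 in affected dogs and −1.58 and −0.37 in escapers. Its difference was 1.17 (SE 0.47, limma adjusted p = 0.37), and 0.68 without affected 1.

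In escapers against normal dogs, IGF1 differed by 1.61 (SE 0.46), the adaptor SHC1 by 0.66 (SE 0.23) and RHEB, the switch of mTOR, by −0.81 (SE 0.23), with limma adjusted p from 0.19 to 0.21. IGF1 stood at 2.17 in escaper 2 and 0.12 in escaper 1, and without escaper 2 these differences were 0.58, 0.20 and −0.43. With processed signals IGF1 gave 3.36. Escaper minus affected was −0.60 (SE 0.23) for RHEB, 0.68 (SE 0.28) for IGFBP5, an IGF binding protein, and 0.79 (SE 0.42) for TBC1D4, a regulator of glucose transporter traffic. Without escaper 2 the values for RHEB and TBC1D4 were −0.22 and 0.21. TRIM32, a ubiquitin ligase known to act on plakoglobin in muscle, had no probe with the symbol.

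The dystrophin complex and costamere genes, with which plakoglobin is found at the fibre membrane, had 38 of 60 members with a probe and 32 tested, of which 0 passed in any comparison. With 20 arrays and dog as a block, 1 passed between affected and normal dogs and 2 between escaper and normal dogs. In that fit 314 and 911 probes passed over the whole array. With slide as a random block 1 and 3 passed in these comparisons, beside 114 and 522 probes over the whole array. With the 2 compared groups alone, 1 passed between affected and normal dogs, beside 113 probes over the whole array. Members also passed without escaper 1, without escaper 2, and without affected 1 and escaper 2. Those fits left 1 escaper, and they too called many probes over the whole array. In the fit of all 10 dogs, medians were 0.06 in affected and −0.06 in escaper dogs against normal dogs. DMD itself differed by 0.03 (SE 0.16, limma adjusted p = 0.95) between affected and normal dogs, on a probe that passed the background level on 10 of 20 arrays, and this sign turned in 6 alternatives. The labels do not give the mutation, so this probe does not check the dogs' labels. DAG1, or dystroglycan, differed by 0.10 (SE 0.17) and DTNA, or dystrobrevin, by −0.22 (SE 0.21). DES, the desmin filament protein, differed by −0.06 (SE 0.51) on a probe saturated on 19 of 20 arrays, which compresses its differences, and by 0.10 (SE 0.51) at its other tested probe. SGCA had no probe with the symbol.

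The members of this list with the smallest p were ANK2, SNTB2 and LAMB1 between affected and normal dogs. ANK2, an ankyrin of the costamere, had 1.89, 1.07, 1.34 and 1.56 in normal dogs and −1.59, 0.29, −0.14 and 0.20 in affected dogs, a difference of −1.77 (SE 0.39, limma adjusted p = 0.18). SNTB2, a syntrophin, differed by 1.15 (SE 0.32, adjusted p = 0.26) in affected and 1.45 (SE 0.40, adjusted p = 0.19) in escaper dogs. LAMB1, a laminin chain, differed by 1.39 (SE 0.46, adjusted p = 0.30) and 2.18 (SE 0.56, adjusted p = 0.19). The other tested LAMB1 probe, detected on 7 of 20 arrays, gave 0.07 (SE 0.20) and 0.42 (SE 0.24). Without escaper 2 the escaper values of SNTB2 and the brighter LAMB1 probe were 0.87 and 0.91. LAMB2, the laminin chain of synapses, differed by 1.33 (SE 0.35, adjusted p = 0.19) between escaper and normal dogs and by 0.88 (SE 0.35) between escaper and affected dogs. Leaving out affected 1 and escaper 2 was chosen after the data had been seen. Affected minus normal was then −1.35 for ANK2 and 1.32 for SNTB2, and the brighter LAMB1 probe stayed higher in affected dogs. In other fits of this comparison, ANK2 passed with the slide block, SNTB2 with 20 arrays and LAMB1 with these groups alone. In that order, 114, 314 and 113 probes passed over the whole array. Between escaper and normal dogs, SNTB2 and LAMB2 passed with the slide block and with 20 arrays, and LAMB1 with the slide block. FLNC, a filamin of the Z-disc and membrane, and ANK2 differed by −1.08 (SE 0.44) and 1.02 (SE 0.47) between escaper and affected dogs, with limma adjusted p of 0.80. FLNC was −0.32 without escaper 2 and −0.69 (SE 0.39) at its other tested probe, and ANK2 was 0.59 without affected 1.

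**Figure D4:**
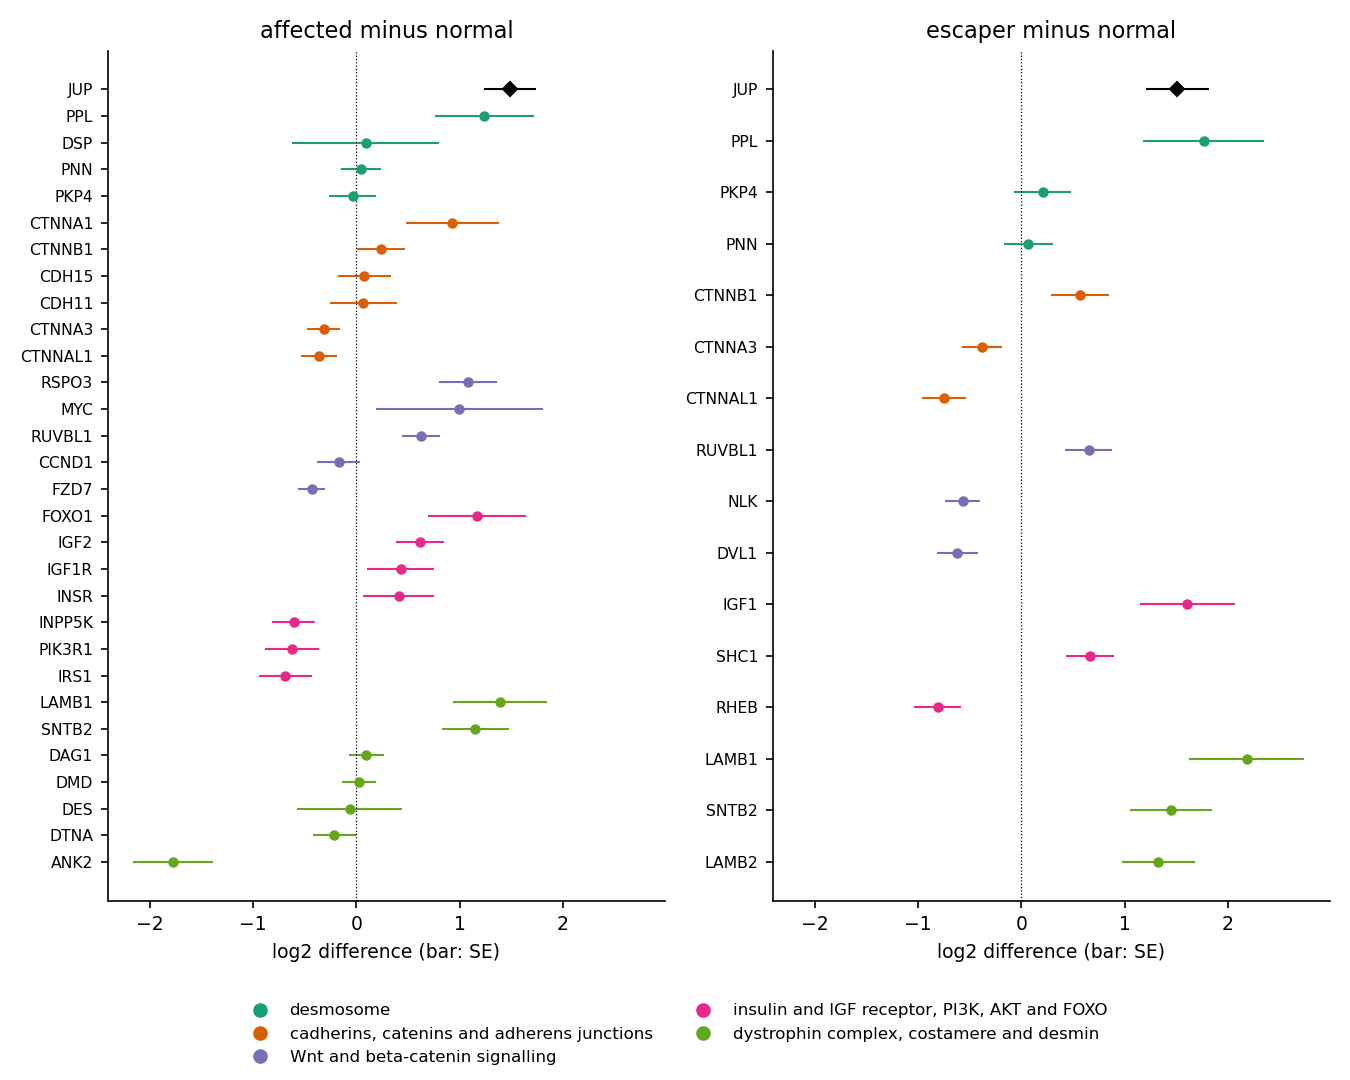
Log2 differences with SE for JUP (diamond) and the named genes of 5 lists (points, coloured by list) between affected and normal dogs on the left and escaper and normal dogs on the right. JUP is a description, and none of the named genes passed the adjusted threshold in these fits.

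Genes were also ranked by how closely they followed JUP in these dogs. Those named below are the extremes of that ranking, so their high r was fixed by the choice. Their r of deviations and their r without a dog use the same dogs and do not test the choice. Over the 10 dogs, 73 of 6166 other genes had a Pearson r over 0.8 with the bright JUP probe and 147 had r under −0.8. The dogs form a normal and a dystrophic cluster on this axis and share a reference, so r mostly reads the group difference and is given without a p. PRPF39, a splicing factor, came first with r = 0.99. Its ratios were −0.45, 0.01, −0.32 and −0.38 in normal dogs, with normal 2 again nearest to the dystrophic dogs, which ran from 0.17 to 0.38. Its deviations from the group means also followed those of JUP (r = 0.94), over a range of log2 ratio that was narrower than JUP's.

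GPR177, the array's symbol for the protein that carries Wnts to the cell surface, came second with r = 0.95 and 0.72 for deviations from the group means. It had −0.43 to −0.31 in normal dogs and −0.15 to −0.04 in dystrophic dogs. TGDS, a sugar nucleotide enzyme, RRP8, which methylates ribosomal RNA, and TSEN54, a subunit of the tRNA splicing endonuclease, followed with r = 0.91, 0.90 and 0.89. ARMCX3, a mitochondrial armadillo repeat protein, RUVBL1 and the splicing regulator SFRS12 had r = 0.89 each. For TSEN54 the deviations from group means gave r = 0.32, so that its likeness lay mainly between the groups. Among genes that were not picked by r, r with JUP was 0.70 for PPL, 0.53 for CTNNB1 and −0.16 for DSP. It was stronger in others, as with −0.90 for FZD7, −0.80 for CTNNA3, −0.78 for IRS1 and 0.76 for both FOXO1 and SNTB2.

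In the opposite direction, C37H2orf69 (r = −0.97), the deubiquitinase OTUD1 (r = −0.96), ABHD14A (r = −0.94), HDDC3 (r = −0.94) and ROGDI (r = −0.93) came first. OTUD1 had 2.94, 1.38, 1.77 and 2.66 in normal dogs and −0.79 to 0.74 in dystrophic dogs. Its lowest normal value belonged to normal 2, the normal dog with the highest JUP. ROGDI had 1.26 to 2.36 in normal dogs, −0.74 to −0.31 in affected dogs and −0.46 and −0.66 in escapers. Leaving out any 1 dog kept the r of PRPF39 between 0.98 and 0.99 and that of C37H2orf69 between −0.98 and −0.95.

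**Figure D5:**
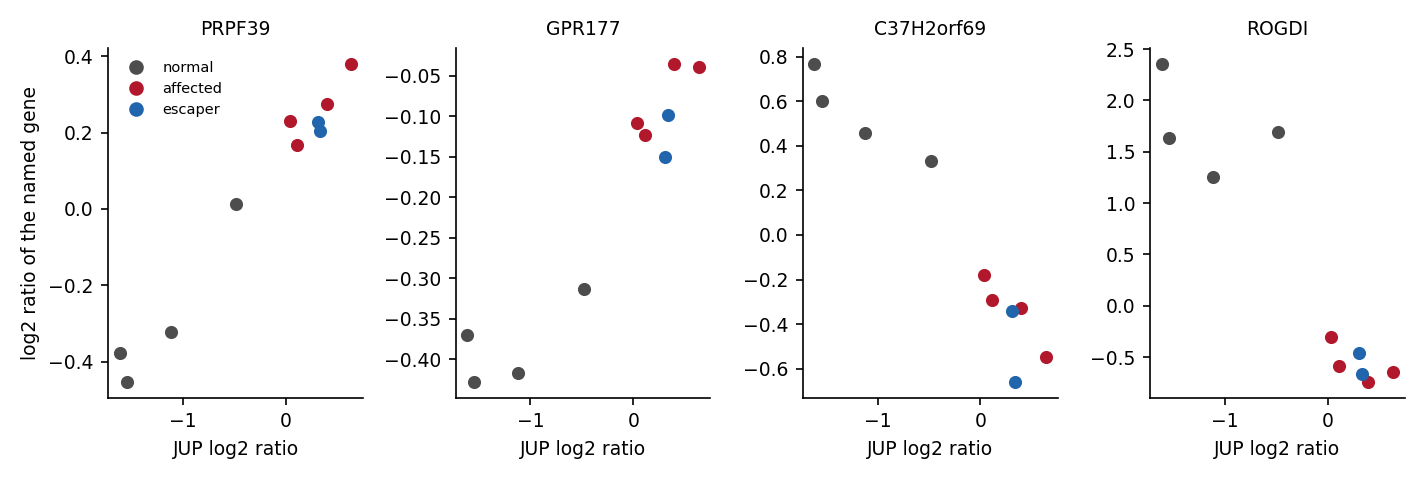
Log2 ratio of 4 genes against that of the bright JUP probe, with a point for each of the 10 dogs coloured by group. PRPF39 and GPR177 run with JUP and C37H2orf69 and ROGDI against it, and the dystrophic dogs form a cluster apart from the normal dogs in each panel.

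No probe beside JUP on chromosome 9 was called, as held for nearly all probes of the array. Within 100000 bases of the bright probe the array holds 16 other probes, of which 7 were tested, with differences from −0.58 to 0.50 between affected and normal dogs and a smallest limma adjusted p of 0.27. NT5C3L, a nucleotidase, had means of −0.59 in normal, −0.09 in affected and −0.13 in escaper dogs, a difference of 0.50 (adjusted p = 0.38) for affected minus normal and 0.46 (adjusted p = 0.35) for escaper minus normal, the same direction as JUP. P3H4, which takes part in collagen modification, had −0.61, −0.54 and −0.07. FKBP10, a collagen chaperone, was above background on 5 of 20 arrays and had −0.33, −0.26 and 0.50. KLHL10 and KLHL11 were above background on 0 of 20 arrays.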

How the data were processed

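The authors scanned the arrays with Agilent Feature Extraction 9.5.3.1, and the deposited files hold red and green mean intensity and local background intensity per spot, per the file headers. The authors' deposited value table holds log2 ratios. Each of its columns equalled the log2 ratio of processed signals, dog over reference (r = 1), so scale and direction are known, while the columns are not centred (medians −0.16 to 0.27). It served as an alternative. The genome build is not given in the sources used here.

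Each array was corrected with normexp (offset 50) and loess in limma 3.58.1 (R 4.3.3), with control spots at weight 0. Control spots and outlier flags were then left out, ratios were turned to dog over reference, and the 2 arrays of a dog were averaged. Probes were tested if at least 2 dogs had them well above background on their Cy5 array and on their Cy3 array (16130) and if they were measured in every dog (16008). All 10 dogs entered 1 limma fit with 3 groups, so that the escapers share the spread of the others, with Benjamini-Hochberg adjustment and a threshold of 0.05. A gene stands for its brightest tested probe. Symbols are those of the files, updated through a RefSeq table, with 29792 of 42034 probes left unnamed and 795 symbols kept that the table does not hold. The fit was tested on simulated data. The number of arrays limits the precision, and dog numbers only name the dogs.

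JUP and the gene and marker lists were chosen with earlier results of these data known. Named were 29 genes of interest where measured, for each list and comparison the 3 measured genes of lowest unadjusted p, and the 8 genes with the highest and 5 with the lowest r with JUP. PKP2, DSC2, CDH2 and CTNND1 were well above background on too few arrays to be tested. The alternatives, given at the end, were other normalisations and filters, single dyes, slide or dog as a random block, only the compared groups, other variance settings, each JUP probe, and leaving out each dog. Leaving out affected 1 together with escaper 2 was added after the data had been seen.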

Additional observations from a re-analysis of the deposited data

Results flagged for a closer look

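Among the JUP probes and named genes, 88 groups of 4 dogs were examined for a dog far from the other 3, and 4 were found, where chance alone gives about 1 in 20 groups. No JUP probe was among them. Affected 1 stood apart from the other affected dogs in LAMB2, at −0.74 against 0.44 in the nearest dog, in CCND1, at −0.91 against −0.22, and in IGF1R, at 0.52 against −0.82. Normal 3 stood apart from the other normal dogs in DES, at −0.71 against 0.35, on a probe saturated on 19 of 20 arrays.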

How the results depend on the processing

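Of 26 alternatives, 7 leave the JUP differences of 1.49 and 1.51 as they are by construction and 2 use another JUP probe. Of the other 17, 15 moved the first difference and 13 the second, since leaving out a dog of the third group cannot move a difference. The deposited table repeats the values of the processed signals. Over these 17 the differences ran from 1.34 to 1.72 and from 1.15 to 1.75, and leaving out 1 dog gave 1.34 to 1.72 and 1.37 to 1.75. They moved by more than the residual SD of 0.39 only with another JUP probe, to 0.26 and 0.078 with the first and to 0.14 and 0.054 with the second. The first was not above background in normal dogs and the second in no dog, so these values measure no difference. Escaper minus affected ran from −0.31 to 0.14, so its sign is not settled. No paired analysis was possible because dog numbers do not pair dogs across groups.

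The 3 probes called between affected and normal dogs became 28 with processed signals or the deposited table, 114 with slide as a random block (estimated correlation −0.27), 314 with 20 arrays and dog as a block, 113 with these groups alone, 7 with Cy5 and 1 with Cy3, and 899 without affected 1 and escaper 2. Leaving out 1 dog gave 0 to 113. Escaper minus normal went from 0 to 1 with no filter, 522 with the slide block, 911 with 20 arrays and 20 without those 2 dogs, and to 0 to 3920 leaving out 1 dog. Escaper minus affected gave 12 without those 2 dogs and 0 to 1755 leaving out 1 dog, the highest without escaper 1. Without escaper 1, escaper 2 was the only escaper. With the slide block the SE of JUP affected minus normal fell from 0.25 to 0.20. The cause of the changed counts was not tested.

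Of 59 named gene differences, 18 changed sign in some alternative and 21 passed the threshold in some. Affected minus normal turned with processed signals or the deposited table to −0.18 in PNN, 0.21 in PKP4, −0.89 in DSP, −0.71 in DMD and 0.017 in DES. It turned with Cy5 alone to −0.12 in DSP, −0.049 in CDH11 and −0.026 in DMD, with Cy3 alone to 0.070 in PKP4 and −0.027 in DAG1, and without affected 1 and escaper 2 to 0.00942 in CCND1 and 0.022 in DES. Escaper minus normal turned with median centring to −0.086 in PNN and −0.031 in CTNNB1, with Cy5 to −0.024 and without those 2 dogs to −0.15 in PKP4, and with Cy3 to −0.15 in PNN. Escaper minus affected of PNN turned to −0.11 with median centring, −0.22 with Cy3 and −0.17 without those 2 dogs, which also gave −0.85 in PPL, −0.044 in NECTIN3, −0.19 in CDH11 and −0.047 in TBC1D4.

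Leaving out 1 dog, affected minus normal ran from −0.082 to 0.18 in PNN, −0.23 to 0.10 in PKP4, −0.32 to 0.67 in DSP, −0.00684 to 0.15 in CDH11, −0.046 to 0.35 in CDH15, −0.24 to 0.00942 in CCND1, −0.068 to 0.17 in DMD, −0.00287 to 0.18 in DAG1 and −0.34 to 0.058 in DES. Escaper minus normal ran from −0.15 to 0.56 in PKP4, and escaper minus affected from −0.76 to 1.82 in PPL, −0.11 to 0.60 in PKP4, −0.12 to 0.15 in PNN and −0.23 to 1.56 in CDH11. Members of each list also passed between escaper and normal dogs without escaper 1. Escaper 2 was then the only escaper, and probes passed over the whole array. With all 10 dogs, 20 arrays and dog as a block, 1 desmosome, 1 Wnt and 2 insulin genes passed between escaper and normal dogs. In that fit 2 Wnt genes passed between affected and normal dogs. With the slide block, 2 insulin genes passed between escaper and normal dogs. In that order, 911, 314 and 522 probes passed over the whole array, so none of this is a result about the lists. The first and second JUP probes were dim and gave no second view of JUP, and the reason for their weak signal was not tested.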
